A study of Mus musculus with 12 samples.

Results

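The effect of a stroma that presents a Notch ligand was examined in erythroid cells that lack IKAROS. The 3 IkNull/OP9-DL1 libraries were set against the 3 IkNull/OP9 libraries, paired by culture number. These are 6 of the 12 RNA-seq libraries of the series, and 13769 of 38250 genes entered the comparison, those whose normalized counts averaged 5 or more over all 12 libraries. Fetal liver cells of E14.5 mouse embryos were kept for 48 h on a layer of OP9 or OP9-DL1 stroma, with 2 U/mL erythropoietin. Per the methods of the study, Ter119+ cells were then sorted, whereas the labels name a filter only. OP9 is a bone marrow stromal line, and OP9-DL1 is the same line made to express the Notch ligand Delta-like 1 constitutively. An effect of the ligand and one of any other difference between the lines cannot be told apart in these libraries. All IkNull embryos were homozygous for a deletion of the last translated exon of Ikzf1 and came from crosses of heterozygous mice labelled CD1, as did the wild type (IkWT) embryos. The IkWT libraries, 3 on OP9 against 3 on OP9-DL1, were used only beside the IkNull effect. The deletion is germline, so the myeloid cells of the fetal liver carry it as well as the erythroid cells.

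Notch receptors are activated by Delta-like and Jagged ligands on a neighbouring cell. Cleavage by gamma-secretase then releases the intracellular domain, which enters the nucleus, binds RBPJ and MAML proteins and turns on genes such as Hes1 and Nrarp. IKAROS is a zinc finger protein of blood cells that binds many of the same regulatory regions and recruits chromatin remodelling complexes. In the fetal liver, erythroblasts mature around a central macrophage, which holds them, supplies iron and takes up the expelled nuclei. RNA of macrophages and of the stroma can therefore travel with erythroid cells.

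The 6 IkNull libraries held between 23145016 and 30026638 normalized counts, and the lowest total of all 12 was 18285417. Libraries of the same number on both stromas resembled each other, with correlations across genes of 0.83, 0.64 and 0.69 once group means were removed, against -0.63 to 0.20 for different numbers, and were taken as 1 culture each. Removing the mean of 3 libraries lowers the values for different numbers when those for the same number are high. The gap between them is therefore partly built in. Ikzf1 itself was read at 2633, 2189.7 and 1817 normalized counts on OP9 and at 2719, 2314 and 1721 on OP9-DL1 in cultures 1, 2 and 3. Since only the last translated exon is deleted and reads were counted per gene, these values do not check the genotype. The erythroid marker Hbb-b1, a beta-globin gene, was abundant in every IkNull library, with 2521560 to 4779078 normalized counts. Markers of other cells were read as well: C1qa of macrophages at 135 to 669, Col1a1 of stroma at 124 to 421, Alb of hepatocytes at 428 to 1615, Pf4 of megakaryocytes at 455 to 1597 and Elane of neutrophil precursors at 143 to 597. The T cell gene Cd3e was at 0 in all 6. The cultures also stood apart from each other in the 53 interferon-stimulated genes listed, whose summed level on OP9 was 93707 in culture 1, 560508 in culture 2 and 1175250 in culture 3.

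On OP9-DL1 stroma, IkNull cells had higher levels of 70 genes and lower levels of 31. A gene was called when its limma p, Benjamini-Hochberg adjusted over all genes tested, was under 0.05 and its log2 fold change was at least 0.8 in size, which are the limits the study used; fold changes are on the log2(normalized count + 1) scale, which understates the change of genes with few counts. The 70 genes were 0.508% of those tested and the 31 were 0.225%. Each of the 101 moved the same way in all 3 cultures, as did 30.3% of all genes tested. At any size of change 187 genes passed the adjusted p. The genes that rose included the ligand gene Dll1, 13 genes of the stromal and matrix list, and Adamdec1, Clec4f, H2-Aa and Cd74. The genes that fell included Spp1, Ctsl, Mmp19, Arg1 and Ednrb.

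The calls rested on the pairing and on single cultures. Without the replicate block 2 genes were higher, Dll1 and Adamdec1, and none was lower, by limma at the same thresholds. Without IkNull culture 1, 18 genes were higher and 4 lower. Without culture 2 there were 64 and 78, and without culture 3 there were 51 and 14. Of the 70 and 31 genes called with all cultures, 16 and 4 stayed called without culture 1, 48 and 29 without culture 2, and 41 and 11 without culture 3. A set of 15 higher genes (Abcg3, Adamdec1, Bgn, Cd74, Col6a1, Col6a2, Dll1, Dnase1l3, Fbn1, H2-Aa, Pcolce, Pla2g7, Prrx1, S100a4 and Serpinf1) and 3 lower genes (Ctsl, Mmp19 and Spp1) stayed called whichever IkNull culture was left out. This set was picked after its values were seen. DESeq2 on the reads of IkNull cultures 1 and 2 and of the IkWT cultures called 39 genes higher and 13 lower, and edgeR called 70 and 25. These were only partly the same genes. Of the 70 and 31 genes of the main fit, DESeq2 called 30 and 12, and edgeR called 43 and 20. With all libraries scaled to the same total, 57.1% of the called genes were higher, against 69.3% in the main fit, and the median change of all genes was -0.065 against -0.0068.

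**Figure D1:**
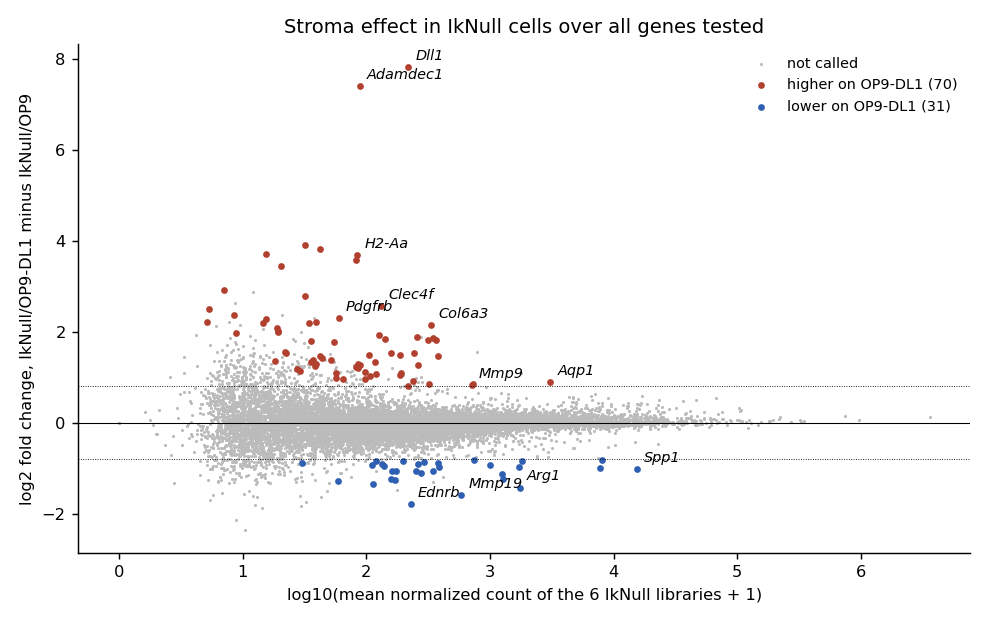
Log2 fold change of each of the 13769 genes tested in IkNull cells (OP9-DL1 minus OP9, mean of 3 cultures, on log2(normalized count + 1)) against the log10 of its mean level in the 6 IkNull libraries. Red points are the 70 genes called higher and blue points the 31 called lower; dotted lines mark 0.8 and -0.8, and Dll1 and Adamdec1 stand alone at the top with 7.83 and 7.41.

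Dll1, the ligand itself, showed the largest change. Its normalized counts in IkNull cultures 1, 2 and 3 were 0, 1.26 and 2.01 on OP9 against 387, 394 and 523 on OP9-DL1, which is 7.83 ± 0.35 on the log2 scale (mean of 3 pairs with the SE of the fit, limma adjusted p = 1.68e-07). Each SE given after ± pools the spread of all 6 cultures, IkNull and IkWT, and is moderated over genes. It is therefore not the spread of the 3 IkNull pairs alone. The groups were far apart, and the same was seen in IkWT cells, with 0.96, 5.58 and 0.95 on OP9 against 203, 436 and 484 on OP9-DL1. Dll1 lies on chr17:15367354-15376872 (GRCm38, minus strand), and reads of this gene and of the coding sequence introduced into the stroma cannot be told apart in counts per gene. The value thus checks the labels of the stroma.

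The other Notch ligands were not called. Jag1, which encodes a second class of ligand, had 22.2, 25.2 and 41.2 normalized counts on OP9 against 57.1, 43.8 and 49.4 on OP9-DL1, a change of 0.78 ± 0.26 on the log2 scale (limma adjusted p = 0.18). All 3 OP9-DL1 values lay above the OP9 values. Dlk1, a Delta-like protein without the domain that activates receptors, had 64.2, 127 and 184 on OP9 against 42.8, 103 and 97.7 on OP9-DL1, lower in every culture with a change of -0.60 ± 0.18 on the log2 scale (limma adjusted p = 0.14). Jag2 stood at 15.1 or below in every IkNull library, Dll4 at 3.02 or below, and Dll3 and Dlk2 at 1.30 or below.

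Of the 4 receptors none was called, with a median log2 fold change of -0.16. The gene for Notch1 had 89.0, 177 and 158 normalized counts on OP9 against 74.0, 217 and 109 on OP9-DL1, and Notch2, the most read of them, had 159, 353 and 313 against 135, 308 and 290.1. Notch3 had 44.5, 143 and 44.2 on OP9 against 71.4, 139 and 138 on OP9-DL1, higher in cultures 1 and 3 but not in culture 2. None of 25 genes of ligand and receptor processing and trafficking and none of 23 nuclear factors of the pathway was called, with median log2 fold changes of -0.05 and -0.04. The lowest p among the processing genes was that of Psen2, a catalytic subunit of gamma-secretase, with 138, 231 and 190 on OP9 against 99.9, 175 and 144 on OP9-DL1 (log2 fold change -0.42 ± 0.13, limma adjusted p = 0.16). Rbpj, the DNA-binding partner of the cleaved receptor, changed by -0.13 on the log2 scale (limma adjusted p = 0.41).

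Among the known Notch target and feedback genes, 0 of 18 tested passed both thresholds, and their median log2 fold change was 0.15. Of all genes tested 0.508% were called higher and 0.225% lower, so a list of 18 would hold few called genes or none. Hes1, a transcriptional repressor and the best known target, had 6.18, 15.1 and 26.1 normalized counts in cultures 1, 2 and 3 on OP9 against 24.7, 24.2 and 39.3 on OP9-DL1. It was higher in all 3 cultures, but the OP9 value of culture 3 lay above 2 of the OP9-DL1 values, and the log2 fold change of 1.02 ± 0.40 did not pass (limma adjusted p = 0.26). In IkWT cells Hes1 went from 13.4, 7.43 and 11.4 to 19.6, 55.0 and 29.6, with a log2 fold change of 1.52, which was not called either. Nrarp, a feedback inhibitor that binds the RBPJ complex, had 40.8, 37.8 and 28.1 on OP9 against 45.4, 40.8 and 57.4 on OP9-DL1 in IkNull cells, with a change of 0.42 ± 0.24 on the log2 scale (limma adjusted p = 0.46). Nrarp was called in IkWT cells, with a log2 fold change of 1.03, but the 2 genotypes were not shown to differ (interaction -0.61, limma adjusted p = 0.64).

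A single member of the target list passed the adjusted p. Nfkb2, a subunit of the non-canonical NF-kappaB pathway, had 2083, 2008 and 1750.3 normalized counts on OP9 against 2721, 2692 and 2031 on OP9-DL1, a change of 0.34 ± 0.07 on the log2 scale (limma adjusted p = 0.027), under the limit of 0.8. Id3, an inhibitor of basic helix-loop-helix factors, had 75.4, 50.4 and 61.3 on OP9 against 115, 74.0 and 89.7 on OP9-DL1 (log2 fold change 0.56 ± 0.16, limma adjusted p = 0.12). Il7r, the interleukin 7 receptor, went the other way in every culture, with 45.7, 189 and 301 on OP9 against 23.4, 122 and 191 on OP9-DL1 (log2 fold change -0.74 ± 0.22, limma adjusted p = 0.13). Cdkn1a, which encodes the cell cycle inhibitor p21, had 14170.2, 21399 and 24010 on OP9 against 16407, 26966 and 23451 on OP9-DL1, higher in 2 cultures and lower in culture 3. Its log2 fold change was 0.17 ± 0.07 (limma adjusted p = 0.29).

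**Figure D2:**
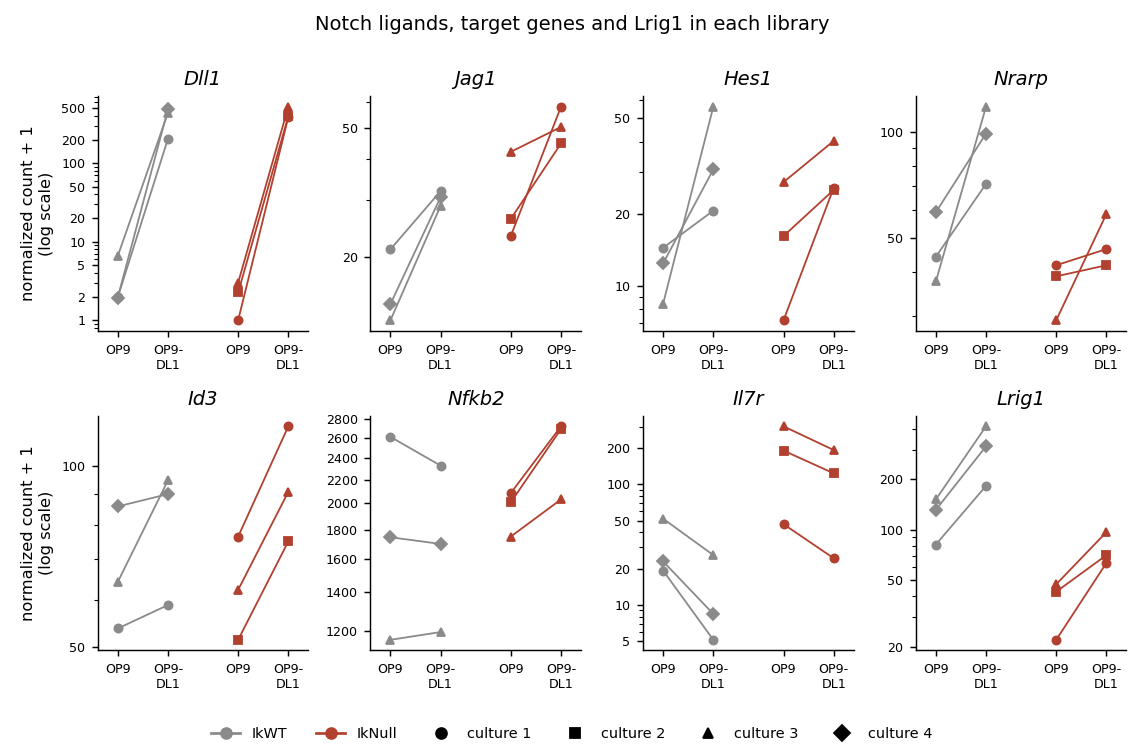
Normalized count + 1 (log scale) of 8 genes in each of the 12 libraries; lines join the OP9 and OP9-DL1 libraries of a culture, grey for IkWT and red for IkNull, and the symbol gives the culture number. Dll1 went from 2.01 or less to 387 or more in IkNull libraries, and its reads cannot be told apart from those of the sequence introduced into the stroma. Lrig1 rose in all 6 cultures. Hes1, Nrarp and Id3 were higher on OP9-DL1 in every IkNull culture without being called.

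Lrig1 was the gene called in IkNull cells among 11 tested of the 21 that the study lists as desensitized to Notch in IkNull cells, a list the study drew from these same libraries and which is therefore not independent evidence. It encodes a membrane protein that restrains receptors of the EGF family (chr6:94604529-94700158, minus strand). Its values were 21, 41.6 and 46.2 normalized counts on OP9 against 62.3, 69.4 and 95.7 on OP9-DL1, with no overlap. The log2 fold change was 1.09 ± 0.17 (limma adjusted p = 0.0074), against 1.29 in IkWT cells, where the level itself was higher (80.5, 151 and 130 on OP9; 182, 413 and 314 on OP9-DL1). The call was lost without IkNull culture 1 (log2 fold change 0.88, limma adjusted p = 0.078). The 10 other members tested were not called in IkNull cells, and their log2 fold changes ran from -1.15 to 1.51. Padi2, a peptidylarginine deiminase, had 25.9, 87.0 and 39.2 on OP9 against 42.8, 49.8 and 33.2 on OP9-DL1, with a log2 fold change of -0.11 ± 0.24. Rph3al had 122, 216 and 135 on OP9 against 149, 145 and 88.6 on OP9-DL1, and its log2 fold change of -0.29 ± 0.17 differed from the 1.18 in IkWT cells by -1.47 (limma adjusted p = 0.073). Dclk2 was at 11.1 normalized counts or below in all IkNull libraries, so its log2 fold change of 0.28 ± 0.39 rests on few reads. Spic, a transcription factor of red pulp macrophages, had 4.94, 5.05 and 5.02 on OP9 against 25.9, 10.6 and 15.1 on OP9-DL1, higher in every culture, with a log2 fold change of 1.51 that was larger than that of Lrig1 but not called (limma adjusted p = 0.069). Tmem184a was also higher in all 3 cultures, by 0.73 on the log2 scale (limma adjusted p = 0.052).

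The 9 genes that the study followed by qRT-PCR, also chosen on these samples, were all above 0, with a median log2 fold change of 0.96, and 1 of them was called. This was Cxcl1, a neutrophil chemokine of stromal and myeloid cells, with 14.8, 10.1 and 35.2 normalized counts on OP9 against 41.5, 31.7 and 81.6 on OP9-DL1. The OP9 value of culture 3 lay above the OP9-DL1 value of culture 2, and the paired log2 fold change was 1.39 ± 0.24 (limma adjusted p = 0.013). It was lost without culture 1 (limma adjusted p = 0.11) and by edgeR and DESeq2. Trp53, the gene for p53, had 3013, 3568 and 3147 on OP9 against 3831, 5160.0 and 3797 on OP9-DL1, a rise of 0.38 ± 0.07 on the log2 scale that passed the adjusted p (limma, 0.019) but was under 0.8. Il6, Mmp23 and Prdm16 stood at 77.6 normalized counts or below in every IkNull library and had log2 fold changes of 0.96, 1.01 and 1.11, none of them called. Zfp446 had 100.1, 174 and 125 on OP9 against 148, 222 and 198 on OP9-DL1 (log2 fold change 0.53 ± 0.16, limma adjusted p = 0.13).

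By number, the stromal and matrix list held the most called genes of any list. For their size, shorter lists drawn up after the values were seen held more. These were the osteoclast and lipid-handling macrophage list (9 lower and 2 higher of 21) and MHC class II (4 higher of 9). Of 44 stromal and matrix genes tested 13 were called higher and none lower, and the median log2 fold change was 1.02. Of all genes tested 0.508% were called higher and 0.225% lower. Col6a1, Col6a2 and Col6a3 encode the 3 chains of collagen VI, a beaded filament of connective tissue. Col6a1 had 157, 70.6 and 218 normalized counts on OP9 against 681, 261 and 682 on OP9-DL1, a change of 1.87 ± 0.13 on the log2 scale (limma adjusted p = 9.32e-06). The lowest OP9-DL1 value, that of culture 2, was above the highest OP9 value. Col6a2 had 110.0, 42.9 and 183 on OP9 against 504, 178 and 507 on OP9-DL1 (1.89 ± 0.17, limma adjusted p = 1.36e-04), with culture 2 lowest on both stromas. Fbn1, the microfibril protein fibrillin, had 30.9, 45.4 and 81.4 on OP9 against 154, 151 and 287 on OP9-DL1 (1.93 ± 0.18, limma adjusted p = 1.72e-04). Pdgfrb, the receptor by which mesenchymal cells respond to platelet-derived growth factor, had 7.41, 20.2 and 32.1 on OP9 against 112, 43.8 and 138 on OP9-DL1 (2.30 ± 0.38, limma adjusted p = 0.011), a call lost without culture 1.

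Not every stromal gene followed. Col1a1, the main fibrillar collagen, had 124, 188 and 172 normalized counts on OP9 against 414, 181 and 421 on OP9-DL1, so it was higher in cultures 1 and 3 and about level in culture 2. Col3a1 had 103, 97.1 and 74.3 on OP9 against 292, 70.9 and 263 on OP9-DL1, the same pattern. Their log2 fold changes of 0.99 ± 0.26 and 0.95 ± 0.32 were not called with all 3 cultures (limma adjusted p = 0.084 and 0.17) and were called without culture 2 (limma adjusted p = 0.0030 and 0.0013). Sparc, a matrix protein that binds collagen, had 192, 190.5 and 296 on OP9 against 385, 325 and 518 on OP9-DL1 (0.86 ± 0.18, limma adjusted p = 0.037), a call that was lost when any 1 of the 3 IkNull cultures was left out. The summed level of the 46 listed genes was 6388, 5978 and 7105 on OP9 against 11991, 7819 and 11304 on OP9-DL1, and no defining stromal marker was at 0. Without culture 1, 4 stromal genes were called, and without culture 2 there were 19. In IkWT cells 21 of the 44 were called higher, with a median of 1.09. Whether reads from carried-over stroma make up these values was not tested, and in bulk samples more cells of a type and more RNA per cell cannot be told apart.

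After Dll1 the largest rises were those of Adamdec1, Ocstamp, Apol7c, the pseudogene Gm8221, H2-Aa and Dnase1l3, with log2 fold changes of 7.41, 3.92, 3.82, 3.71, 3.69 and 3.58. Gm8221 is uncertain, since reads of a pseudogene can be shared with a similar gene. Adamdec1, a secreted metalloprotease of macrophages and dendritic cells (chr14:68563380-68582095), was at 0 in all 3 IkNull/OP9 libraries and at 117, 232 and 176 normalized counts on OP9-DL1. Against a floor of 3 reads in each OP9 library this was at least 50.03-fold higher (limma log2 fold change 7.41 ± 0.45, adjusted p = 2.89e-06). In IkWT cells Adamdec1 reached 7.22, 23.1 and 30.4 on OP9-DL1. Dnase1l3, a nuclease that macrophages and dendritic cells secrete, had 6.18, 10.1 and 18.1 on OP9 against 67.5, 217 and 171 on OP9-DL1, with no overlap (3.58 ± 0.39, limma adjusted p = 7.50e-04). Clec4f, in mice a lectin of liver macrophages (Kupffer cells), had 11.1, 39.1 and 76.4 on OP9 against 103, 282 and 270.0 on OP9-DL1, again with no overlap (2.57 ± 0.37, limma adjusted p = 0.0059). Its call was lost without culture 1 (limma adjusted p = 0.094).

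Of the other genes that rose, Ocstamp, a membrane protein needed for the fusion of osteoclast precursors, had 3.71, 3.78 and 1.00 normalized counts on OP9 against 25.9, 72.5 and 77.6 on OP9-DL1 (3.92 ± 0.66, limma adjusted p = 0.012). Its call was lost without culture 1 and without culture 3. Gbp8, of the guanylate-binding proteins that interferon gamma induces, had 2.47, 25.2 and 7.03 on OP9 against 9.08, 134 and 52.4 on OP9-DL1 (2.21 ± 0.39, limma adjusted p = 0.015), overlapping between the groups and lost when any 1 IkNull culture was left out. Apol7c, of the apolipoprotein L family, had 0, 1.26 and 25.1 on OP9 against 22.1, 151 and 46.3 on OP9-DL1 (3.82 ± 0.79, limma adjusted p = 0.035). Its log2 changes in IkNull cultures 1, 2 and 3 were 4.53, 6.07 and 0.86. It was at 0 in all 6 IkWT libraries, which narrows its pooled SE, and its call was lost without IkNull culture 1 or 2. Pla2g7, the secreted hydrolase of platelet-activating factor, was more abundant, with 142, 197 and 115 on OP9 against 301, 925 and 519 on OP9-DL1 (1.83 ± 0.19, limma adjusted p = 6.57e-04), and held whichever culture was left out.

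Genes of MHC class II, which presents peptides to helper T cells, were among those that rose. This list was drawn up after the values had been seen, and no test was made of it as a group: 4 of 9 tested members were called higher and none lower, with a median log2 fold change of 1.82, and the summed level of the 11 listed genes was 213, 305 and 129 normalized counts on OP9 against 611, 1504 and 434 on OP9-DL1. H2-Aa and H2-Ab1 encode the alpha and beta chains of the I-A molecule and lie beside each other on chromosome 17 (chr17:34282744-34287823, minus strand, and chr17:34257689-34269419, plus strand). H2-Aa had 9.88, 29.0 and 2.01 on OP9 against 138, 267 and 55.4 on OP9-DL1 (3.69 ± 0.34, limma adjusted p = 1.76e-04). All OP9-DL1 values lay above all OP9 values, and every culture rose, although the cultures differed in level. H2-Ab1 had 6.18, 20.2 and 1.00 on OP9 against 44.1, 90.6 and 23.2 on OP9-DL1 (2.79 ± 0.45, limma adjusted p = 0.0098), a call lost without culture 1 or 3. Cd74, the invariant chain that guides class II molecules to the endosome, had 167, 173 and 65.3 on OP9 against 369, 847 and 269 on OP9-DL1 (1.82 ± 0.26, limma adjusted p = 0.0062). Ciita, the coactivator that class II promoters require, had 1.24, 13.9 and 4.02 on OP9 against 18.2, 60.4 and 10.1 on OP9-DL1 (2.10 ± 0.43, limma adjusted p = 0.033), a call lost without culture 1 or 2. H2-Eb1, the beta chain of I-E, had 0, 11.3 and 1.00 on OP9 against 1.30, 90.6 and 15.1 on OP9-DL1, higher in each culture but not called (2.37 ± 0.58, limma adjusted p = 0.069).

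The bases before the start are shown for 2 of the 6 class II genes that were higher in all 3 cultures, with those of Spp1, the gene that fell with the smallest p, beside them. They are the 250 bases upstream of the annotated start in RefSeq (GRCm38.p6), 5′ to 3′ on the strand of the gene: chr17:34287824-34288073, minus, for H2-Aa, chr17:34305617-34305866, plus, for H2-Eb1, and chr5:104434861-104435110, plus, for Spp1. Capitals mark CTGATTGG, the inverted CCAAT letters of the class II Y box, and in H2-Aa also TTCCCA, the reverse complement of the RBPJ core TGGGAA.
H2-Aa: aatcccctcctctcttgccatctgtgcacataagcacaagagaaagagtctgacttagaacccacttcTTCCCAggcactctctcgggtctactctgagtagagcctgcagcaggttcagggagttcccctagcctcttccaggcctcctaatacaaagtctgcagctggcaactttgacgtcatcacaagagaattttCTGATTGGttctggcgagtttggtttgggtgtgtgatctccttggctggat
H2-Eb1: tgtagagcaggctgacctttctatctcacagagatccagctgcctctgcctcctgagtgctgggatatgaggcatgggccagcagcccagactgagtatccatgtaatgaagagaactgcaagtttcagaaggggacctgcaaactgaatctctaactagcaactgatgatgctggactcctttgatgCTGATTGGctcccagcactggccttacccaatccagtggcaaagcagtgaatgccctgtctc
Spp1: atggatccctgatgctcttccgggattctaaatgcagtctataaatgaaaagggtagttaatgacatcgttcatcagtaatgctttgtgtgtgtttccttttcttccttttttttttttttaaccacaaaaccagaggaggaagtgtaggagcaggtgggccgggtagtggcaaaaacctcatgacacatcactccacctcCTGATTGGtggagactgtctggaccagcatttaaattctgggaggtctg

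On either strand, CTGATTGG was found in 3.83% of all 32851 windows of this length and TGGGAA in 21.6%; the 2 motifs share no letters at these places. The CTGATTGG match lay 51 bases before the start of H2-Aa, 62 before that of H2-Eb1 and 49 before that of Spp1. Only windows holding these letters were taken for printing, so their presence in all 3 was fixed by that choice. Of the windows of genes called higher 3.7% held CTGATTGG, and of those of genes called lower 8%, which is 2 windows each. Of the 9 class II genes tested 6 had windows in the table, and 3 of them held CTGATTGG (H2-Aa, H2-Eb1 and H2-Oa, the last with a log2 fold change of -0.48). Of the 70 genes called higher 49 had windows, and 10 of their 54 windows, or 18.5%, held TGGGAA. Of the 18 Notch target genes tested 14 had windows, and 3 of those 19 windows held it, in Acta2, Cdkn1a and Hey2. The 2 shares for TGGGAA are near that of all windows, whereas CTGATTGG was in 3 of the 7 class II windows, or 42.9%, which is few windows of a list drawn up after the values were seen. A match is only a run of letters.

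The macrophage list as a whole did not rise. Of 29 macrophage genes tested 2 were called higher (Clec4f and Aif1, the latter not without culture 3) and none lower, with a median log2 fold change of 0.21. Its summed level was 68250 on OP9 against 62265 on OP9-DL1 in culture 1, 94298 and 105425 in culture 2, and 79589 and 71889 in culture 3, so it fell in 2 cultures and rose in 1. Lgals3, a galectin of activated macrophages, had 1793, 3729 and 3200.2 normalized counts on OP9 against 834, 2992 and 1908 on OP9-DL1, a fall of 0.72 ± 0.11 on the log2 scale that passed the adjusted p only (limma, 0.0070). Emr1, which encodes the macrophage marker F4/80, had 406, 869 and 424 on OP9 against 206, 740 and 279 on OP9-DL1 (-0.60 ± 0.13, limma adjusted p = 0.036). C1qa, a complement subunit of tissue macrophages, had 292, 254 and 135 on OP9 against 270, 669 and 349 on OP9-DL1, lower in culture 1 and higher in the other 2 (0.88 ± 0.31, limma adjusted p = 0.21). Slc40a1, the iron exporter ferroportin, had 792, 674 and 564 on OP9 against 1073, 1312 and 1120.1 on OP9-DL1, with no overlap; its rise of 0.80 ± 0.11 (limma adjusted p = 0.0042) lay just under the limit of 0.8. Vcam1, an adhesion molecule of the central macrophage and of stroma, was higher in every culture (60.5, 98.4 and 86.4 against 70.1, 156 and 168; 0.61 ± 0.23, limma adjusted p = 0.24). In a list of 12 tested Kupffer cell genes, drawn up after the values were seen, Clec4f was called, and the median was 0.71.

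The genes that fell were abundant ones. Spp1, the secreted phosphoprotein osteopontin, had 7395, 31288 and 23955 normalized counts in cultures 1, 2 and 3 on OP9 against 3771, 14470.2 and 12116 on OP9-DL1. Levels differed between cultures, so that the groups overlapped, but each culture fell by nearly the same factor, with -1.02 ± 0.06 on the log2 scale (limma adjusted p = 1.47e-06). Ctsl, the lysosomal protease cathepsin L, had 5959, 12706 and 11503 on OP9 against 2466, 8362 and 5397 on OP9-DL1 (-0.99 ± 0.10, limma adjusted p = 3.73e-04). Mmp19, a matrix metalloprotease, had 452, 1229.8 and 920.4 on OP9 against 135, 463 and 300.2 on OP9-DL1 (-1.59 ± 0.17, limma adjusted p = 7.56e-04). These 3 held whichever IkNull culture was left out.

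Other called genes fell as follows. Arg1, the arginase of alternatively activated macrophages, had 2296, 3259 and 1772 normalized counts on OP9 against 1025, 1732 and 382 on OP9-DL1, with no overlap (-1.43 ± 0.22, limma adjusted p = 0.0075). Ednrb, the type B endothelin receptor, had 347, 399 and 307 on OP9 against 76.6, 98.1 and 136 on OP9-DL1, also without overlap, the largest fall among the called genes (-1.78 ± 0.27, limma adjusted p = 0.0065). Ccl6 and Ccl9, a pair of rodent chemokines of myeloid cells, fell by 1.14 ± 0.17 and 0.97 ± 0.12 on the log2 scale (limma adjusted p = 0.0062 and 0.0018), in Ccl9 from 1249, 2670.3 and 2686 to 480.1, 1757 and 1411. Fam20c, a kinase of secreted proteins, had 301, 530 and 278 on OP9 against 117, 302 and 123 on OP9-DL1 (-1.11 ± 0.16, limma adjusted p = 0.0062). The calls of Arg1, Ednrb, Ccl6, Ccl9 and Fam20c were lost without culture 1. Ctsk, the collagen-degrading protease of osteoclasts, had 2859, 2397 and 62.3 on OP9 against 1014, 1280.2 and 24.2 on OP9-DL1, so culture 3 had far less of it on both stromas (-1.24 ± 0.24, limma adjusted p = 0.022). That call was lost when any 1 IkNull culture was left out.

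In a list of osteoclast and lipid-handling macrophage genes, also drawn up after the values were seen, 9 of 21 tested were called lower and 2 higher, with a median of -0.55. The 2 that rose were Ocstamp and Mmp9, so the list did not move as 1 group. Its summed level fell in each culture, from 38082.5 to 23281, from 81879.5 to 54569.9 and from 60786 to 34883. In IkWT cells 8 of the 21 were lower and none was higher, at sums of 16308.5, 20078 and 16452 on OP9. Of the remaining large falls, Flrt2, an adhesion protein, had 106, 261 and 276 on OP9 against 31.1, 160.0 and 114 on OP9-DL1 (-1.24 ± 0.22, limma adjusted p = 0.017). Peg10, an imprinted gene expressed from the paternal copy, had 111, 238 and 123 on OP9 against 38.9, 119 and 41.3 on OP9-DL1 (-1.34 ± 0.24, limma adjusted p = 0.015). The calls of Flrt2 and Peg10 were lost without culture 1 or without culture 3.

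**Figure D3:**
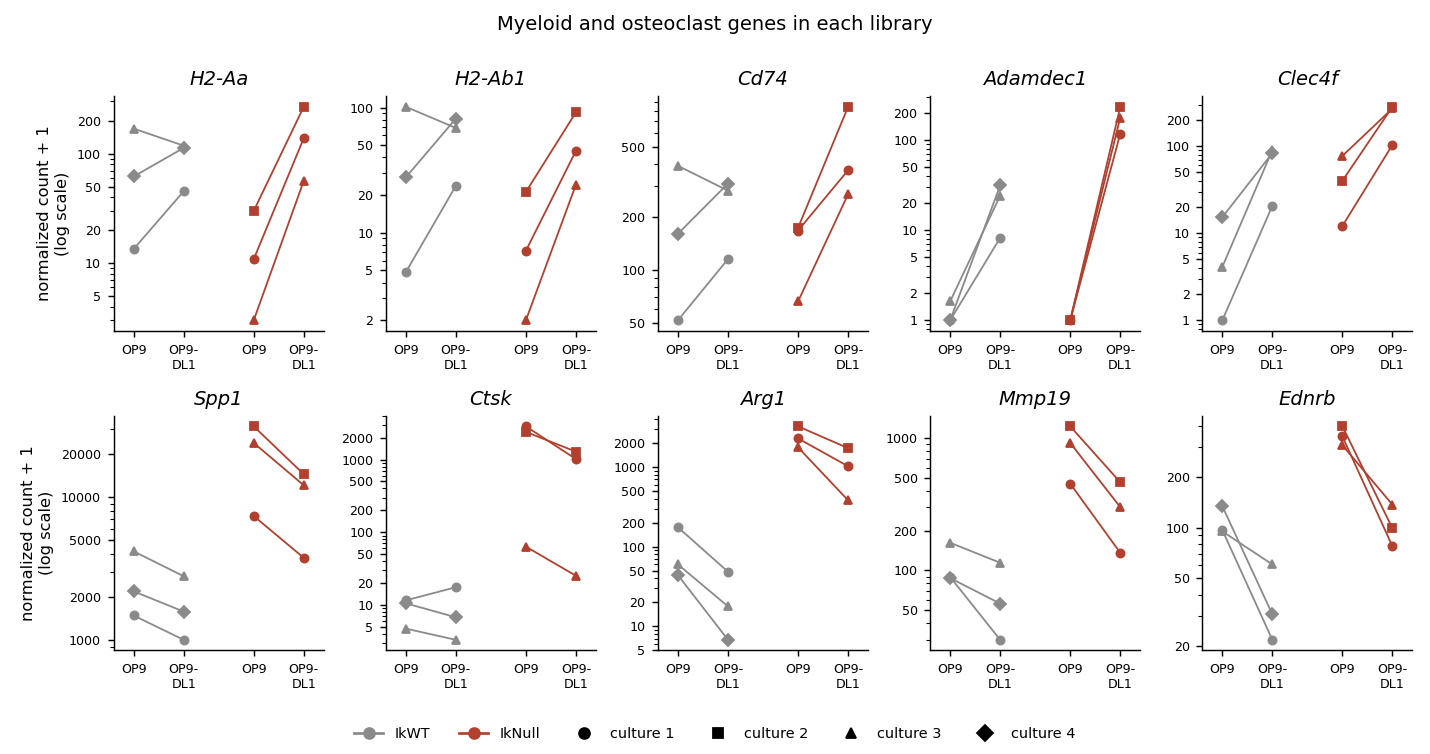
Normalized count + 1 (log scale) of 5 genes that rose and 5 that fell in IkNull cells, in each of the 12 libraries, with lines joining the OP9 and OP9-DL1 libraries of a culture (grey IkWT, red IkNull, symbols for culture numbers). All IkNull lines rise in the upper row and fall in the lower row. In IkWT culture 3 H2-Aa, H2-Ab1 and Cd74 fell, and in IkWT culture 1 Ctsk rose. Spp1, Ctsk, Arg1, Mmp19 and Ednrb were lower in IkWT than in IkNull cells on OP9.

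Of 19 granule and other genes of neutrophils tested, 3 were called lower (Elane, Ngp and Ctsg, named after their values were seen, each lost without culture 1 or 3) and 1 higher (Mmp9), with a median log2 fold change of -0.59. In all 3 cultures 11 were lower, where 30.3% of all genes tested moved alike in either direction. Mpo, the myeloperoxidase of the azurophil granule, had 1408, 3822 and 3818 normalized counts on OP9 against 779, 2797 and 1903 on OP9-DL1 (-0.77 ± 0.11, limma adjusted p = 0.0061), just short of 0.8. Prtn3, proteinase 3, changed by -0.75 ± 0.12 (limma adjusted p = 0.011). The fall was smallest in culture 2, where the summed level of the list was 97083 on OP9 against 94279 on OP9-DL1, against 44986.5 and 26633 in culture 1 and 87953 and 49703 in culture 3. Without culture 2, 10 of the 19 were called lower, and without culture 1 or without culture 3 none was, by limma. Mmp9, the gelatinase of neutrophils and osteoclasts, had 529, 603 and 340 on OP9 against 1123, 1227 and 443 on OP9-DL1 (0.83 ± 0.14, limma adjusted p = 0.012), a call lost without culture 1 or 2 and when all libraries were scaled to the same total.

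Mast cell and basophil genes went both ways, with more of them down. Of 15 tested 1 was called higher and 1 lower, and the median log2 fold change was -0.38. Of the 15, 5 were above 0, while 7 were lower and 4 higher in all 3 cultures. Cpa3, the carboxypeptidase of mast cell granules, had 395, 90.8 and 251 normalized counts on OP9 against 92.1, 46.8 and 150.1 on OP9-DL1, a change of -1.26 ± 0.23 on the log2 scale (limma adjusted p = 0.017) that was lost without culture 1. Mcpt1, a chymase of mucosal mast cells, had 92.7, 174 and 79.4 on OP9 against 278, 358 and 671 on OP9-DL1 (1.89 ± 0.43, limma adjusted p = 0.053). All 3 OP9-DL1 values of Mcpt1 were above the OP9 values, and the gene was called in IkWT cells with 4.69. Gzmb, granzyme B, had 0, 2.52 and 0 on OP9 against 9.08, 7.55 and 17.1 on OP9-DL1 (2.93 ± 0.51, limma adjusted p = 0.014), a gene of very few reads whose call was lost without culture 1 or 3. Of 19 megakaryocyte genes none was called, and 14 were lower in all 3 cultures, with a median of -0.39, a list not tested as a group. Pf4 had 1438, 1597 and 877 on OP9 against 855, 1415 and 455 on OP9-DL1 (-0.62 ± 0.22, limma adjusted p = 0.20), and Itgb3 had 2507, 3659 and 2022 against 2307, 3025 and 1353 (-0.32 ± 0.11, limma adjusted p = 0.18). No gene of the endothelial (13 tested), hepatocyte (16) or lymphoid (11) lists was called. At the shares of all genes tested, 0.508% higher and 0.225% lower, such short lists would hold few called genes or none. Alb, the serum albumin of hepatocytes, had 589, 605 and 1615 on OP9 against 428, 1451 and 939 on OP9-DL1, in no common direction.

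No gene of the erythroid lists was called, where 0.508% of all genes tested were called higher and 0.225% lower. At those shares lists of this size would hold few called genes or none. Of 33 late erythroid genes, 27 heme and iron genes, 9 globin genes and 25 erythroid regulators none was called, and their median log2 fold changes were 0.02, 0.07, 0.12 and -0.03. All 9 globin genes were above 0, up to 0.47, as were 26 of the 33 late erythroid genes, 19 of the 27 heme and iron genes and 11 of the 25 regulators, and 2 globin genes and 1 late erythroid gene were higher in all 3 cultures. Of all 13769 genes tested, 6673 were above 0. Slc4a1, the anion exchanger band 3, had 327567, 335732 and 303310 normalized counts on OP9 against 365463, 344835 and 271025 on OP9-DL1, and Klf1, the erythroid transcription factor, had 10524, 6554 and 6612 against 11373, 5995 and 6292. Neither gene moved the same way in all 3 cultures. Ribosomal protein genes (55 tested, median -0.05) and cell cycle genes (36 tested, median 0.05) held no called member. Aqp1, a water channel of red cells and endothelium picked here after its values were seen, was an abundant gene that rose, from 1521, 2494 and 2296 to 3566, 2745 and 5758 (0.90 ± 0.17, limma adjusted p = 0.019), a call lost without culture 1 or 3.

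Of 52 interferon-stimulated genes tested none was called by limma, and 1 passed the adjusted p at any size. Their median log2 fold change was 0.37, and 51 of the 52 were above 0, against 6673 of all 13769 genes tested. Of the 52, 21 were higher in all 3 cultures, where 30.3% of all genes tested moved alike in either direction. The list was not tested as a group. The summed level went from 93707 to 121735 in culture 1, from 560508 to 837864 in culture 2 and from 1175250 to 1120550 in culture 3, so the cultures differed from each other far more than the stromas did. By edgeR, which left out culture 3, 7 were called higher, and by DESeq2 4 were. MHC class I genes had a median of 0.26 with 19 of 23 above 0 and none called. Hypoxia and glycolysis genes (25 tested) had a median of -0.14, with none called. Of these 13 were lower in all 3 cultures, beside the same 30.3% of all genes.

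**Figure D4:**
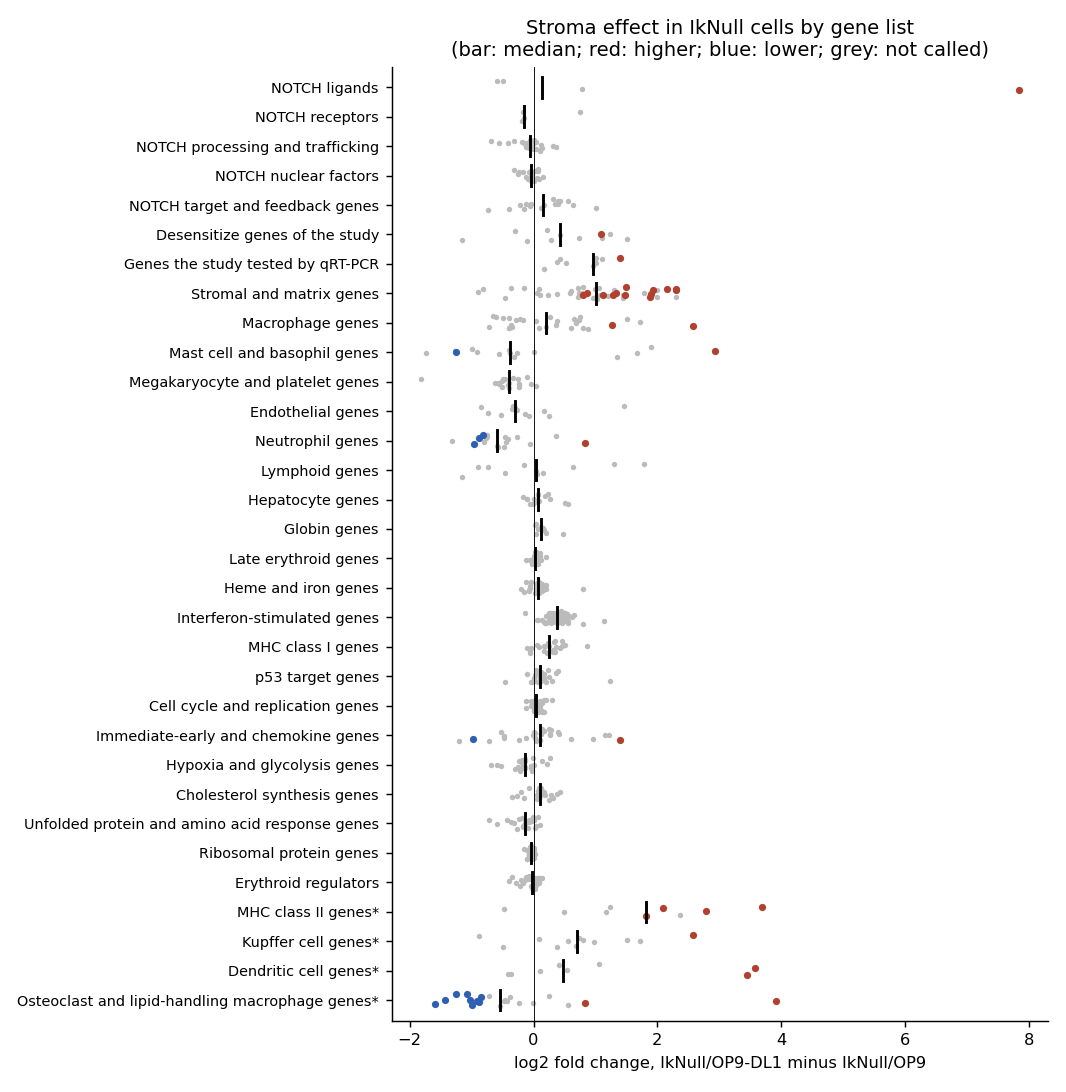
Log2 fold change in IkNull cells (OP9-DL1 minus OP9) of the tested members of each gene list, with a black bar at the median; red and blue points are genes called higher and lower, grey points were not called, and an asterisk marks lists drawn up after the values were seen. The stromal list centres on 1.02 and the MHC class II list on 1.82, whereas the erythroid, globin and ribosomal lists lie close to 0.

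In IkWT cells the same stroma gave 62 higher genes (0.45% of those tested) and 140 lower genes (1.02%). The 2 contrasts share no library but share the stromal lines. Of the genes called higher in IkNull cells, 25 were called higher in IkWT cells as well, which is 35.7% of the IkNull and 40.3% of the IkWT genes. Of those called lower, 18 were shared, 58.1% of the IkNull and 12.9% of the IkWT genes. No gene was called in opposite directions, and 67 of the 70 higher and 30 of the 31 lower genes had the same sign in IkWT cells. The IkWT log2 fold changes of the IkNull genes had medians of 0.83 for the higher and -0.91 for the lower ones, against 1.54 and -0.99 in IkNull cells, where the calls themselves favour the larger values. The IkWT count rested on single cultures too: without IkWT culture 4, 21 were higher and 67 lower, without culture 3 there were 38 and 114, and without culture 1 there were 55 and 70.

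The difference between the genotypes was tested as the interaction of genotype and stroma. By limma 0 genes passed both thresholds (0% of those tested), with the smallest adjusted p at 0.0519 and 16 genes under 0.1. At an unadjusted p under 0.05 there were 781 genes with a larger and 429 with a smaller log2 fold change in IkNull cells, of 13769 tested. With no difference anywhere a share of about 0.05 would pass that limit, so these counts are not genes shown to differ. On recovered reads, without IkNull culture 3, edgeR called 40 larger and 4 smaller, and DESeq2 called 12 and 0. Of the MHC class II genes, H2-Aa came nearest, with 12.5, 169 and 60.9 normalized counts on OP9 against 44.4, 117 and 112 on OP9-DL1 in IkWT cultures 1, 3 and 4. It was higher in 2 of the 3 IkWT cultures, and the IkNull effect was larger by 2.99 on the log2 scale (limma adjusted p = 0.071). Adamdec1 rose in all 6 cultures, by 3.44 more in IkNull cells on the log2 scale (limma adjusted p = 0.11).

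The lowest interaction p among genes with a mean of at least 20 belonged to Neat1, Malat1, F13a1, Ly6e, Vcan and Mmp9. Neat1, the long noncoding RNA that builds paraspeckles, had 20869, 10976 and 9102 normalized counts on OP9 against 27071, 18812 and 14033 on OP9-DL1 in IkNull cells, a rise of 0.59 ± 0.07 (limma adjusted p = 0.0018). In IkWT cells it went from 31860, 9919 and 12266 to 27964, 9194 and 11376, slightly down in every culture. Malat1, another nuclear long noncoding RNA, rose by 0.55 ± 0.09 in IkNull cells (limma adjusted p = 0.012), from 48531, 63016 and 49068 to 63089, 117097 and 63184. F13a1, the A subunit of coagulation factor XIII in monocytes and megakaryocytes, was lower on OP9-DL1 in both genotypes, by 0.64 ± 0.14 in IkNull cells and more steeply in IkWT cells, where the log2 fold change was -1.99. Vcan, the matrix proteoglycan versican of monocytes, had 451, 865 and 798 on OP9 against 337, 983 and 669 on OP9-DL1 in IkNull cells, in no common direction, and was called lower in IkWT cells with -1.12. Ly6e, a surface protein that interferon induces, was higher in every IkNull culture (4193, 8039 and 12847 against 4883, 11528 and 13654) and lower in every IkWT culture.

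**Figure D5:**
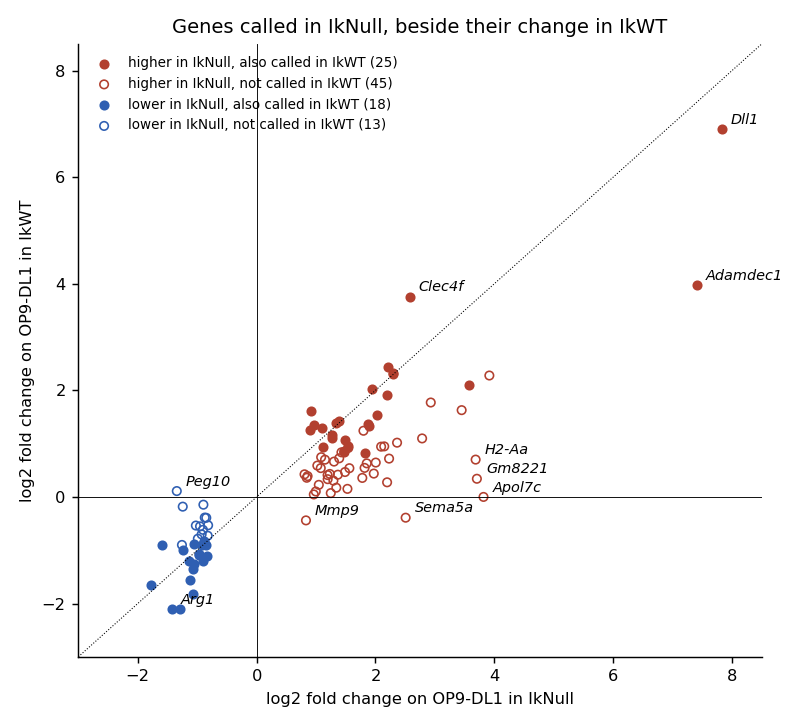
Log2 fold change on OP9-DL1 in IkWT cells (vertical) against that in IkNull cells (horizontal) for the 101 genes called in IkNull cells; filled points were called in both genotypes (25 higher, 18 lower), open points in IkNull cells only, and the dotted line marks equal change. Nearly all points have the same sign in both genotypes, and the open points of H2-Aa, Gm8221 and Apol7c lie far to the right of the line.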

How the data were processed

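RNA-seq libraries were made after 48 h of co-culture, 3 for each of 4 groups. Per the methods of the study, untrimmed HiSeq2000 reads were mapped by TopHat to GRCm38/mm10, and htseq-count gave reads per gene. Versions in the submitters' processing notes are 1.8 for CASAVA, 2.0.9 for TopHat2, 0.5.3 for HTSeq and 1.0.19 for DESeq2. Neither the annotation release nor the strand setting is given in the sources used here. What the authors deposited as signal values are gene counts divided by a size factor per library. Whole reads were recovered for 10 libraries (100% of values within 0.01 of a whole number), 19889576 to 31624477 reads per library. Both libraries of IkNull culture 3 were left out of tests on reads because 1 read had a value close to 1 in them (1.005 and 1.007). This was a choice, since 100% of their values also lay within 0.01 of a whole number. The authors' tables of comparisons hold their own fold changes and p-values and were not used.

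All 12 libraries were fitted together with limma 3.58.1 (R 4.3.3; eBayes with trend) on log2(normalized count + 1), for the 13769 genes averaging 5 or more, with the 6 cultures as a fixed block, which left 4 residual degrees of freedom. To these eBayes added 8.71 prior degrees of freedom, drawn from all genes tested. No source says that libraries of the same number come from the same liver; the pairing rests on the rule of the comparison and on the correlations in the report (in IkWT cells the lowest was 0.58). The study describes its triplicates as biological, and p-values measure only the spread between these samples. Alternatives were no block, IkNull libraries only, pseudocounts of 0.5 and 5, no filter, a minimum mean of 20, TMM, equal totals, a robust prior, edgeR 4.0.16 and DESeq2 1.42.0 on recovered reads, and each culture left out. The fit was tested on simulated data.

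The comparison and the gene lists were chosen with earlier results of these data known. Named genes are the Notch genes with the smallest p, the 10 steepest rises and falls that were called at a mean of 20 or more in IkNull libraries, moving alike in all cultures, up to 3 members per list with a called gene, the genes the study followed, 6 genes by interaction p and markers of other cells; every other gene named, such as Cd74, Ciita, H2-Eb1, Pla2g7, Spp1, Ctsl, Slc4a1 and Klf1, was chosen after its values were seen. Positions are from GENCODE vM21, where 13634 of the tested genes were found. Some items are not reported here.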

Additional observations from a re-analysis of the deposited data

Results flagged for a closer look

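Among the named genes, 5 moved one way in all 3 IkNull cultures and the opposite way in all 3 IkWT cultures. Neat1, Malat1, Ly6e and Mmp9 were among the genes named for a low interaction p in these data. Their opposite movement is therefore not independent evidence, and the number of such genes among all those tested is not given here. The differences between the genotypes, as IkNull minus IkWT log2 fold change, were 0.73 for Neat1, 0.89 for Malat1, 0.73 for Ly6e, 1.27 for Mmp9 and 0.53 for Dusp1, an immediate-early phosphatase. The limma interaction test missed the threshold for each of them over all genes (adjusted p = 0.0519, 0.0519, 0.0519, 0.0594 and 0.157). In IkNull cells the log2 fold changes were 0.59, 0.55, 0.28, 0.83 and 0.40, and in IkWT cells they were -0.14, -0.34, -0.46, -0.44 and -0.13.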

How the results depend on the processing

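Fits without the replicate block, so without pairing, called 2 genes higher and 0 lower in IkNull cells, and 1 higher and 0 lower in IkWT cells. With no filter (21579 genes) the counts were 17 and 5 in IkNull and 27 and 54 in IkWT cells, with more genes of few reads in the adjustment. DESeq2, on 10 libraries, gave 39 and 13 in IkNull cells. Leaving out 1 culture of either genotype gave 18 to 77 higher and 4 to 78 lower genes in IkNull cells, 21 to 69 higher and 67 to 158 lower in IkWT cells, and 0 to 6 larger and 0 to 2 smaller interactions. The interaction gave 6 larger and 1 smaller with a pseudocount of 5, 1 larger with equal totals, 3 with the robust prior, 40 larger and 4 smaller by edgeR and 12 larger by DESeq2, against 0 in the main fit; the cause was not tested. The fits that left out an IkWT culture were added after the data were seen. Of 67 named genes none reversed under any setting run; 27 lost their call without the block, 21 without IkNull culture 1 and 20 with no filter. Genes with few counts, such as Gzmb and Dclk2, limit what depth can show, and p-values rest on 3 cultures per genotype.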
